A study of Mus musculus with 12 samples.

Results

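The p53 target and growth arrest genes followed here were Cdkn1a, Btg2, Gadd45a, Ccng1, Mdm2, Trp53inp1, Bax, Phlda3, Eda2r and Gdf15. They were chosen by name, with earlier results of these data known. The level of each gene was the sum of its listed protein-coding transcripts. All 10 were found among the 14188 genes of the table, with 17 of its 29883 transcripts. Liver RNA was measured in 12 male mice, with 6 mice per group and each mouse being 1 sample. All 12 mice received an intraperitoneal injection of 10 µl/g of a mixture of CCl4 and corn oil 2 times a week. Both groups were thus given the liver toxin, and no liver free of it is compared here. The PZH group also received 0.25 mg/g of PZH (Pien Tze Huang, a compound traditional Chinese medicine) by gavage once a day, and the control group received double distilled water instead. The extent of the injury differed between the groups. At the last time point the study reports lower serum levels of the liver enzymes ALT and AST in PZH mice. It also reports fewer infiltrating inflammatory cells and less collagen in their livers. The part of this milder injury in the levels of the 10 genes was not tested. The mice were 6 weeks old at the start and were killed at week 8, and the strain is C57BL/8 in the labels but another C57BL strain in the study's methods. The table gives FPKM, a level that is already divided by transcript length and by the number of mapped reads of the sample.

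The protein p53 is a transcription factor that is held low in healthy cells and accumulates after DNA damage and other stress. It then switches on genes that stop the cell cycle, genes that favor cell death, and genes such as Mdm2 that act back on p53 itself. In the liver, Cdkn1a is also known to restrain the division of hepatocytes after injury, and several of these genes can be switched on by other stress factors without p53.

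Of the 10 genes, 6 were lower in the PZH group by limma and 0 were higher, also at an unadjusted p below 0.05, and 4 did not pass the test. The 6 lower genes were Cdkn1a, Btg2, Trp53inp1, Bax, Gadd45a and Eda2r. Cdkn1a moved most, with a mean of 37.4 ± 5.52 FPKM (SD, n = 6) in control mice and 8.41 ± 0.815 (SD, n = 6) in PZH mice, a ratio of 4.45. Ccng1, Phlda3, Gdf15 and Mdm2 were the 4 genes that were not called. The test was limma on log2(FPKM + 1) over all genes, with a Benjamini-Hochberg adjusted p below 0.05 as the threshold. Across all genes of the table, 32.1% were called lower and 12.7% higher by this rule. The median difference of the 10 genes was -0.72 on the log2(FPKM + 1) scale, beside -0.11 over all genes. The criterion of the study, a 2-fold change and an unadjusted p below 0.05, was used there on single transcripts. Applied here to gene sums with the limma p, it gave Cdkn1a, Btg2 and Trp53inp1 as lower. These are 3 genes of 10, whereas 2.5% of all genes were lower by it. The PZH and control mice did not overlap in 3 of the 10 genes, Cdkn1a, Btg2 and Bax, and 17.9% of all genes were lower in PZH without overlap. RNA of whole liver was measured, so fewer cells of a type and less RNA per cell cannot be told apart.

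**Figure D1:**
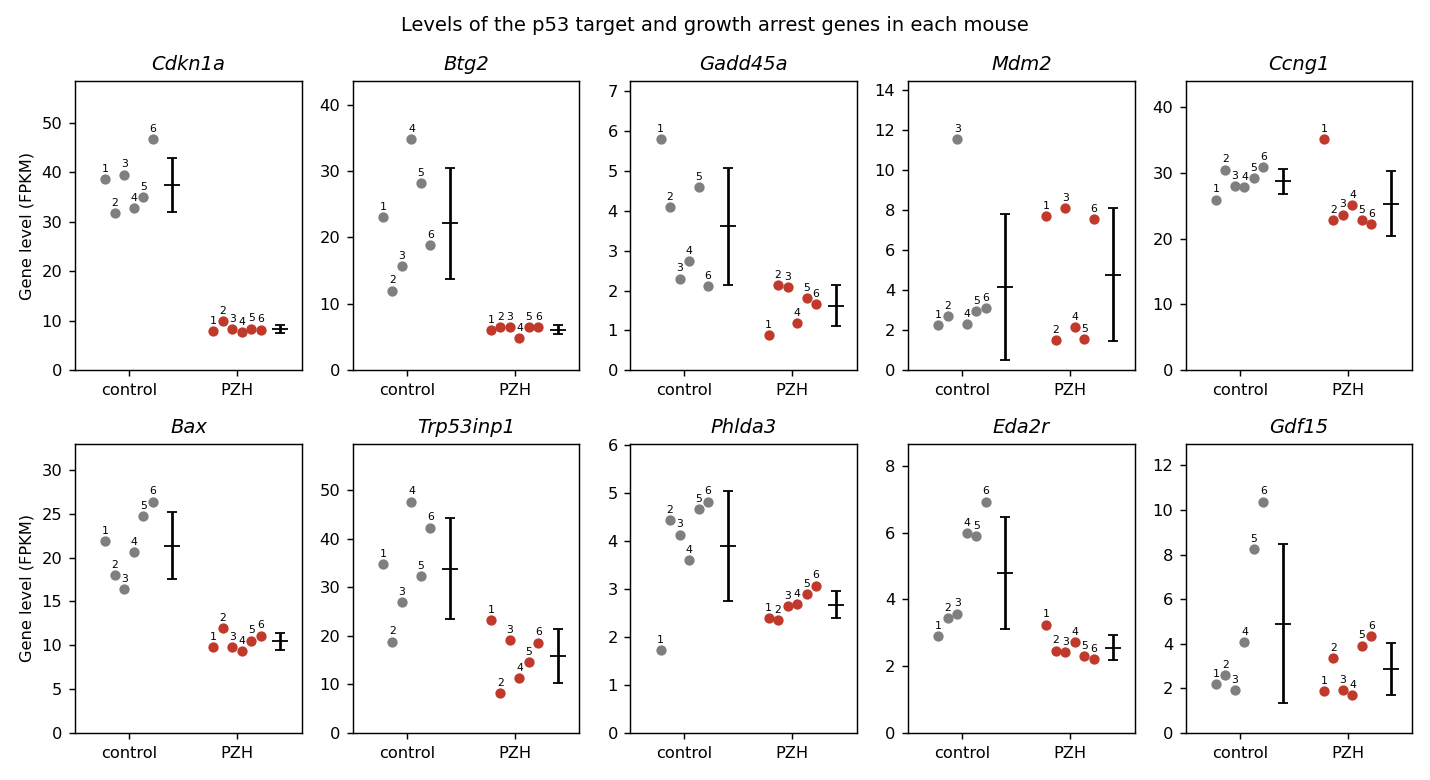
Level of each gene in FPKM (vertical axis, from 0) in the 6 control and 6 PZH mice, with the mouse number beside each point and the mean ± SD as a black bar. The groups are apart in Cdkn1a, Btg2 and Bax, whereas in Mdm2 PZH mice 1, 3 and 6 and control mouse 3 stand above the remaining mice.

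The cell cycle arrest genes were examined first. Cdkn1a (chromosome 17, 29090976 to 29100727, plus strand, GRCm38) encodes p21, an inhibitor of cyclin-dependent kinases and the classical effector of p53-dependent arrest. Its level was 38.7, 31.8, 39.5, 32.7, 35.0 and 46.7 FPKM in control mice 1 to 6. In PZH mice 1 to 6 it was 7.96, 9.99, 8.28, 7.68, 8.39 and 8.18 FPKM. Even the highest PZH mouse was far below the lowest control mouse, and the PZH mice lay close together, with a coefficient of variation of 9.68%. The difference was -2.02 on the log2(FPKM + 1) scale (SE 0.0945, adjusted p = 2.61e-07 by limma). By its p, Cdkn1a was at rank 1 of all 14188 genes, and it kept that rank in each alternative fit tried. By the size of its fall it was at rank 32, and at rank 84 with a pseudocount of 0.1.

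Almost the whole Cdkn1a level came from a single transcript, Cdkn1a-201, with a mean share of 94.9% of the gene. It fell from 36.0 ± 5.40 FPKM (SD, n = 6) in control mice to 7.89 ± 0.963 (SD, n = 6) in PZH mice (log2 difference -2.05, adjusted p = 4.21e-06 over all transcripts). The minor Cdkn1a-203, which starts further downstream, also fell, from 1.32 ± 0.562 to 0.402 ± 0.160 FPKM (log2 difference -0.70, adjusted p = 0.00670). The third transcript, Cdkn1a-202, starts at 29090979, upstream of the main start at 29093769, and was scarcely present. It was listed at 0 in 4 control and 3 PZH mice and reached at most 0.421 FPKM.

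Because these 2 start sites lie in different sequence, the RefSeq promoters (250 bases before to 50 after the start, GRCm38.p6) are shown for both, with capitals for the decamers that match the p53 half-site, the element bound by a pair of p53 molecules, alone or as part of a pair of half-sites.
Cdkn1a upstream start, chr17:29090729-29091028, plus strand: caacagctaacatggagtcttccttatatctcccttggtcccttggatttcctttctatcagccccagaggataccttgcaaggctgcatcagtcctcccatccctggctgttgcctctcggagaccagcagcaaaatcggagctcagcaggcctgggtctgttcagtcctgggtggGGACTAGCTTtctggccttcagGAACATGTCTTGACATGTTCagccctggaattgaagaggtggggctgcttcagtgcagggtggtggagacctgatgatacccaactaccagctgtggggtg
Cdkn1a main start, chr17:29093519-29093818, plus strand: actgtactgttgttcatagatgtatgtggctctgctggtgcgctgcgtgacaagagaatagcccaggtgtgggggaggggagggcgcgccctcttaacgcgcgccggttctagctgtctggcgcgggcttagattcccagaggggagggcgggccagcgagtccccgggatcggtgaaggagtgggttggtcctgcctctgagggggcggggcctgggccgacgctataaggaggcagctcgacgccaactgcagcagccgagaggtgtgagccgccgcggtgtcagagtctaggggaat
The upstream window holds a pair of half-sites without a spacer, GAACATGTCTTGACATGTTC, at chr17:29090928-29090947, which is 2822 bases before the start of Cdkn1a-201. Another half-site, GGACTAGCTT, lies just before it, whereas no match was found within the window of the main start. Of all 32851 promoters of the table, 8.36% hold a half-site and 2.12% hold a pair with a spacer of at most 13 bases and at most 2 letters off. Promoters were given for 9 of the 10 genes (11 promoters), all but Trp53inp1, and 5 of the 11 hold a half-site and 2 a pair. The half-sites are in the promoters of Cdkn1a, Bax, Mdm2, Ccng1 and Gadd45a. These 5 genes include 3 that were lower in PZH (Cdkn1a, Bax and Gadd45a) and 2 that were not called (Mdm2 and Ccng1), while Btg2 and Eda2r were lower and had no match. The matches describe letters in a window and not binding, which was not measured.

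Btg2 (chromosome 1, 134075170 to 134079120, minus strand) encodes an antiproliferative protein that works with the mRNA deadenylation machinery, and it is both a p53 target and an immediate early gene. The control mice had 23.0, 11.99, 15.6, 34.8, 28.2 and 18.9 FPKM. The PZH mice had 6.07, 6.49, 6.45, 4.80, 6.45 and 6.51 FPKM. The groups did not overlap, and the control mice were far more scattered than the PZH mice (coefficients of variation 38.1% and 10.9%). The fall was -1.62 on the log2(FPKM + 1) scale (SE 0.205, adjusted p = 7.17e-05 by limma). The promoter of Btg2 holds no p53 half-site but the sequence TGACGTCA, the palindrome bound by CREB and ATF factors, shown in capitals.
Btg2, chr1:134079106-134079405, minus strand: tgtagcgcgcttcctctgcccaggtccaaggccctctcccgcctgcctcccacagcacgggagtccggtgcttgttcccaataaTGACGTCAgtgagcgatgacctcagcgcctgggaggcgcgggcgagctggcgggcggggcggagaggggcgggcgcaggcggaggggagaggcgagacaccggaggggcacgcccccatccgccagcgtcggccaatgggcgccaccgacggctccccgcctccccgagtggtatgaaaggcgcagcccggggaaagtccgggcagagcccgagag
TGACGTCA was searched on both strands and is found in 1.79% of all promoters, and no other promoter of the 10 genes holds it. TGANTCA, the site of AP-1 factors, is in 7.81% of all promoters and in 0 of the 11.

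Gadd45a (chromosome 6, 67035096 to 67037457, minus strand) encodes a small protein that binds cell cycle and stress kinase partners and is induced by DNA damage, by p53 and by other stress factors. It was at a low level, with 5.80, 4.09, 2.30, 2.74, 4.60 and 2.101 FPKM in the control mice. The PZH mice had 0.873, 2.14, 2.09, 1.18, 1.80 and 1.65 FPKM. The groups overlapped only at their edge, where control mouse 6 lay just below PZH mouse 2. The difference was -0.78 (SE 0.200, adjusted p = 0.00705 by limma), which is under 2-fold on the log2(FPKM + 1) scale, although the ratio of the means was 2.22, and with a pseudocount of 0.1 it was -1.07. Gadd45a overlaps the lncRNA E230016M11Rik on the opposite strand over 859 bases, as Cdkn1a does the unclassified AC167363.2 over 1046 bases, and whether strand was used when reads were assigned is not given in the sources used here.

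The genes that act back on p53 did not pass the test. Ccng1 (chromosome 11) encodes cyclin G1, which recruits a phosphatase to Mdm2. Its level was 25.9, 30.5, 28.0, 27.8, 29.3 and 31.0 FPKM in control mice and 35.2, 22.9, 23.7, 25.2, 22.9 and 22.2 FPKM in PZH mice. PZH mouse 1 was the highest of all 12 mice, and the remaining PZH mice were below every control mouse. The difference was -0.19 (95% interval -0.41 to 0.03, adjusted p = 0.147 by limma), and without PZH mouse 1 it was -0.29 with an adjusted p of 0.00223. Ccng1 was also called when each mouse was scaled to the same FPKM sum (-0.23, adjusted p = 0.0443), whereas with median-ratio scaling the difference was -0.01. This gene had the smallest control spread of the 10, with a coefficient of variation of 6.53%.

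Mdm2 (chromosome 10, 117688875 to 117710758, minus strand) encodes the ubiquitin ligase that marks p53 for degradation. The control mice had 2.25, 2.71, 11.5, 2.28, 2.95 and 3.09 FPKM and the PZH mice 7.67, 1.51, 8.10, 2.16, 1.56 and 7.54 FPKM. The 12 mice thus fell into 8 between 1.51 and 3.09 FPKM and 4 between 7.54 and 11.5 FPKM, and both levels occurred in both groups. The difference was 0.13 (95% interval -0.80 to 1.06, adjusted p = 0.835 by limma), an interval wide enough to hold a change of about the size seen in Eda2r or Gadd45a. Leaving out PZH mouse 1, 3 or 6 turned its sign, with a lowest value of -0.05.

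The split of Mdm2 between its transcripts changed from mouse to mouse as well. Mdm2-201 and Mdm2-202 share the same first and last base and 12 exons each, with lengths of 3099 and 3145 bases. In PZH mouse 1 the high level was that of Mdm2-202 (7.35 FPKM, with 0.322 FPKM of Mdm2-201). In PZH mice 3 and 6 and control mouse 3 it was that of Mdm2-201, with 7.69, 7.45 and 10.96 FPKM. Mdm2-201 made up 73.6% ± 35.6 (SD, n = 6) of the gene in PZH mice and 57.3% ± 25.6 (SD, n = 6) in control mice (exact permutation test, p = 0.381, adjusted over 2 shares 0.381). Without PZH mouse 1 the difference of the shares was 30.1 percentage points with an unadjusted p of 0.0433 by the exact permutation test, and without control mouse 6 it was 9.38. Neither transcript was called, at 0.16 for Mdm2-201 and -0.30 for Mdm2-202 on the log2(FPKM + 1) scale (adjusted p = 0.889 and 0.706 by limma). The transcripts differ by few bases, so how the assembly divided reads between them bears on these shares, and this was not tested.

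The genes that favor cell death were lower as far as they were called. Bax (chromosome 7, 45461697 to 45466898, minus strand) encodes the protein that opens the outer mitochondrial membrane in apoptosis. Its level was 21.9, 18.0, 16.5, 20.7, 24.7 and 26.4 FPKM in control mice and 9.83, 11.96, 9.83, 9.38, 10.5 and 11.1 FPKM in PZH mice. The groups did not overlap, and the PZH mice had a coefficient of variation of 9.21%. The difference was -0.95 (SE 0.108, adjusted p = 3.89e-05 by limma), a ratio of means of 2.05 between control and PZH.

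The listed transcripts of Bax were not all called. Bax-203 has 5 exons and 1100 bases, and Bax-201 has 6 exons and 867 bases. Bax-203 fell from 10.96 ± 3.80 to 3.75 ± 0.882 FPKM (SD, n = 6 each, log2 difference -1.30, adjusted p = 0.00109 by limma). Bax-201 was at 8.63 ± 5.49 FPKM in control and 5.79 ± 1.47 in PZH mice, and was not called (-0.22, adjusted p = 0.787 by limma). The minor Bax-205 was called lower, at 1.76 ± 0.457 FPKM in control and 0.902 ± 0.207 in PZH mice (-0.53, adjusted p = 0.00750 by limma). In control mice 3 and 4 Bax-201 was at 1.67 and 1.96 FPKM and Bax-203 at 13.6 and 16.8 FPKM, while in control mice 1, 2, 5 and 6 Bax-201 was between 9.14 and 13.3 FPKM. The share of Bax-201 was 54.9% ± 9.16 (SD, n = 6) in PZH and 38.6% ± 22.7 (SD, n = 6) in control mice, a difference that did not pass an exact permutation test (p = 0.182, adjusted 0.364). The difference of 16.3 percentage points was 10.6 without control mouse 3 and 10.4 without control mouse 4. The summed level of the gene was thus more even between mice than its parts. How the assembly divided reads between the Bax transcripts bears on these levels and shares, and this was not tested. The unlisted protein-coding gene Gm45808 overlaps Bax on the same strand over 915 bases, so reads from it cannot be told from those of Bax there.

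**Figure D2:**
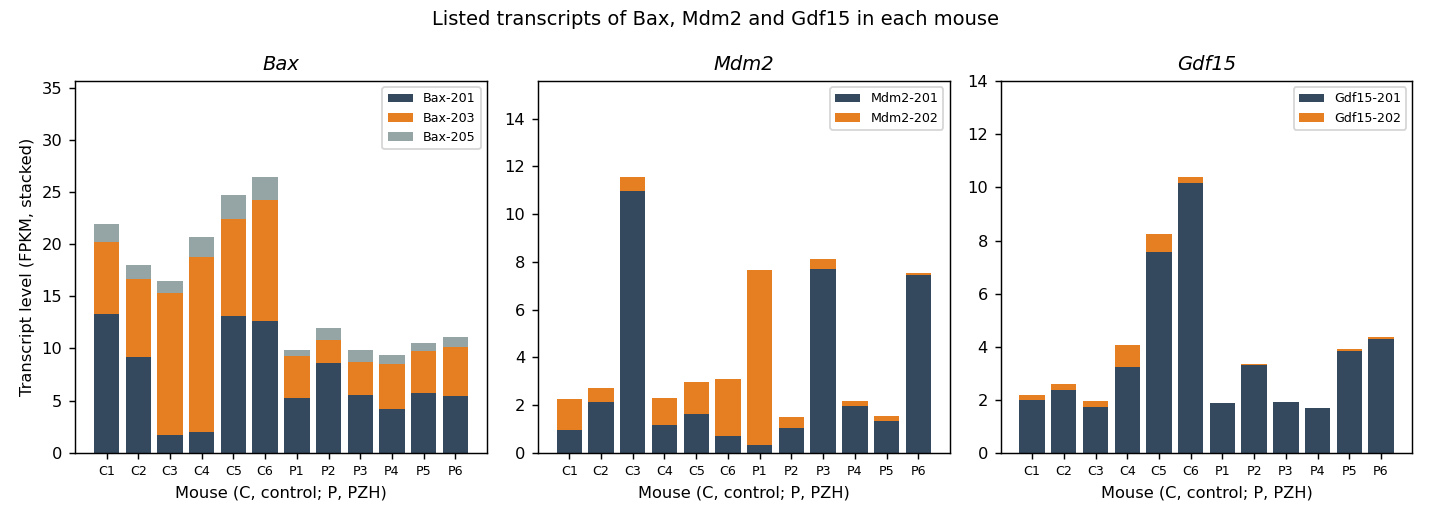
Level of each listed transcript of Bax, Mdm2 and Gdf15 in FPKM, stacked to the level of the gene (vertical axis, from 0), in control mice C1 to C6 and PZH mice P1 to P6. The Bax sum is lower in each PZH mouse, the 4 tall Mdm2 bars are made of different transcripts, and Gdf15-202 is visible in control mice.

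The promoter of Bax is shown because it holds 2 pairs of half-sites that share their middle decamer, which is the full match, and capitals mark the decamers of both pairs.
Bax, chr7:45466849-45467148, minus strand: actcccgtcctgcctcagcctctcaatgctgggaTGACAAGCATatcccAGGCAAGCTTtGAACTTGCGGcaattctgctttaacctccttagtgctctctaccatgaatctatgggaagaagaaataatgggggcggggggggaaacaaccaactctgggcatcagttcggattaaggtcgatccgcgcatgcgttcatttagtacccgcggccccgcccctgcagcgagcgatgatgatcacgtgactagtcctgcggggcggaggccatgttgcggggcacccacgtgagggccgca

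Trp53inp1 (chromosome 4, 11156431 to 11174379, plus strand) encodes a nuclear protein that helps p53 to activate its apoptotic targets. It was at 34.8, 18.8, 26.9, 47.6, 32.3 and 42.3 FPKM in control mice. In PZH mice it was at 23.2, 8.24, 19.2, 11.3, 14.7 and 18.6 FPKM. The groups overlapped through control mouse 2, which was below PZH mice 1 and 3. The difference was -1.06 (SE 0.254, adjusted p = 0.00455 by limma).

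Eda2r (X chromosome, 97333840 to 97377216, minus strand) encodes a receptor of the tumor necrosis factor receptor family that binds an ectodysplasin isoform. Control mice had 2.89, 3.45, 3.58, 5.99, 5.89 and 6.93 FPKM, and PZH mice had 3.24, 2.46, 2.42, 2.72, 2.29 and 2.21 FPKM. Control mouse 1 alone lay below a PZH mouse, PZH mouse 1. The difference was -0.66 (SE 0.168, adjusted p = 0.00674 by limma), and its main transcript Eda2r-201 was called with it (-0.67, adjusted p = 0.0183).

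Phlda3 (chromosome 1) encodes a small protein that competes with Akt for membrane lipids and so restrains a survival signal. Its level was 1.73, 4.44, 4.14, 3.61, 4.67 and 4.83 FPKM in control mice and 2.39, 2.36, 2.65, 2.70, 2.89 and 3.07 FPKM in PZH mice. Control mouse 1 was the lowest of all 12 mice, and the remaining control mice were above every PZH mouse. The difference was -0.38 (95% interval -0.72 to -0.03, adjusted p = 0.0705 by limma), and without control mouse 1 it was -0.54 with an adjusted p of 0.00037.

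Gdf15 (chromosome 8, 70629393 to 70632456, minus strand) encodes a secreted stress cytokine of the TGF-beta superfamily. In control mice it was at 2.18, 2.61, 1.94, 4.08, 8.26 and 10.4 FPKM, and in PZH mice at 1.87, 3.34, 1.92, 1.70, 3.92 and 4.36 FPKM. Control mice 5 and 6 were well above all others, and the remaining mice of both groups covered the same range. The difference was -0.47 (95% interval -1.20 to 0.27, adjusted p = 0.288 by limma), and it was -0.24 without control mouse 6 and -0.30 without control mouse 5. The minor transcript Gdf15-202, whose start at 70632456 lies upstream of the main start, was called lower. It was at 0.178, 0.252, 0.204, 0.830, 0.677 and 0.225 FPKM in control mice and at most 0.0724 FPKM in PZH mice, with 1 PZH mouse at 0 (log2 difference -0.42, adjusted p = 0.0217 by limma). Gdf15-202 holds a mean share of 5.33% of the gene, and it is named here after its values were seen.

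Over the 17 transcripts of the 10 genes, 9 were lower in PZH by limma and 0 were higher, also at an unadjusted p below 0.05, beside 14% of all transcripts lower. The 9 came from 7 genes, with Cdkn1a and Bax giving 2 each, and 5 of the 10 genes had a single listed transcript.

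**Figure D3:**
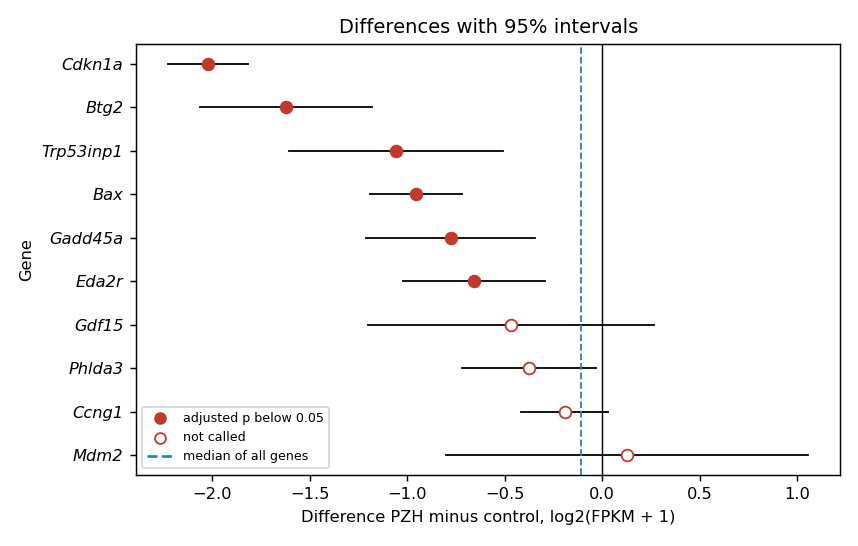
Difference between the PZH and control means of log2(FPKM + 1) for each gene (horizontal axis) with its 95% interval, filled where the adjusted p is below 0.05. The dashed line is the median of all genes at -0.11; the 6 called genes lie between -2.02 and -0.66 and the interval of Mdm2 is the widest.

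Mouse by mouse, the 10 genes did not move as 1 block. Within the PZH mice, Bax followed Cdkn1a (Pearson r = 0.861, rank correlation 0.714, n = 6). PZH mouse 2 was the highest of its group in both genes. Within the control mice r was 0.431 (rank correlation 0.371, n = 6). Among 10947 genes with a mean of at least 1 FPKM, ranked by the lower of their r with Cdkn1a within each group, Bax was at rank 840 and Gdf15 at rank 1134. Btg2 had an r of 0.544 within PZH and -0.13 within control mice, and Trp53inp1 -0.62 and 0.372. The 5 genes most like Cdkn1a were Surf4 (r = 0.929 within PZH and 0.922 within control mice), E430018J23Rik, Tmem214, Arf4 and Clptm1l, with a lower r of 0.856 or more each. These values describe 6 mice per group, in each of which all genes come from the same library, and carry no test.

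The gene of p53 itself was lower. Trp53 was at 12.8 ± 1.93 FPKM (SD, n = 6) in control and 5.92 ± 1.20 (SD, n = 6) in PZH mice, with ranges of 10.3 to 15.2 and 4.55 to 7.66 FPKM that did not overlap (log2 difference -1.0, adjusted p = 6.32e-05 by limma). Its inhibitor Mdm4 was at 8.92 ± 0.303 and 8.72 ± 0.688 FPKM and was not called (-0.03, 95% interval -0.16 to 0.10, adjusted p = 0.689). Of 13 listed genes of p53 and its regulators, 3 were lower (Trp53, the acetyltransferase gene Kat5 at -0.34 and Trp53bp1 at -0.22) and 2 were higher (the checkpoint kinase genes Chek2 at 0.32 and Atm at 0.17). The median of this list was -0.18, with 23.1% lower and 15.4% higher, beside 32.1% and 12.7% of all genes. With median-ratio scaling Trp53bp1 was no longer called, and 3 genes were higher and 2 lower. With equal-sum scaling Atm was no longer called, and 1 gene was higher and 4 lower. The count of 2 higher genes was 1 when any of 9 of the 12 mice (PZH mice 1, 3, 5 and 6 and control mice 1, 2, 3, 5 and 6) was left out, and 1 also with a pseudocount of 0.1, the filter on low values, the mean-variance trend or the replicate block.

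Of 38 other p53 target genes, 17 were lower and 5 were higher, with a median of -0.11, close to that of all genes. This is 44.7% and 13.2%, beside 32.1% lower and 12.7% higher of all genes. The 17 included Tnfrsf12a, the receptor of the cytokine TWEAK (46.5 ± 15.1 FPKM in control and 5.42 ± 2.40 in PZH mice, log2 difference -2.89). Thbs1, which encodes the matrix protein thrombospondin 1 (-2.54), and Ddit4, an inhibitor of mTOR signaling (-1.31), were also lower. Tnfrsf12a and Thbs1 are known as well as genes of wound repair that respond to TGF-beta and other signals. The 4 largest rises were smaller, in the ferrireductase gene Steap3 (0.56), the stress-induced Sesn1 (0.39), the p53-induced Ei24 (0.35) and the mitochondrial reductase gene Fdxr (0.29). The other p53 targets thus moved in both directions, and 16 of the 38 were not called. With median-ratio scaling 15 were lower and 7 higher.

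Of 21 other growth arrest genes, 6 were higher and 2 were lower. This is 28.6% and 9.52%, beside 12.7% higher and 32.1% lower of all genes. The higher genes were led by Cdkn2c, an inhibitor of Cdk4 and Cdk6 (2.32 ± 0.426 FPKM in control and 5.36 ± 1.28 in PZH mice, 0.93), the transcription factor gene Foxo3 (8.02 ± 1.497 and 15.4 ± 2.96 FPKM, 0.86), Gas1 (0.53) and the retinoblastoma family gene Rbl2 (0.50). The 2 lower genes were relatives of Btg2, namely Btg3 (27.6 ± 6.61 FPKM in control and 8.77 ± 1.86 in PZH mice, -1.54) and Btg1 (-0.60). The median of this list was -0.08, and it was 0.10 with median-ratio scaling.

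Of 24 genes of cyclins, cyclin-dependent kinases and proliferation, 11 were higher and 9 were lower. This is 45.8% and 37.5%, beside 12.7% higher and 32.1% lower of all genes. The 4 largest rises were in Mki67, a marker of cycling cells (0.659 ± 0.193 FPKM in control and 3.08 ± 0.756 in PZH mice, 1.29), the ribonucleotide reductase gene Rrm2 (1.26), the topoisomerase gene Top2a (1.20) and the cyclin gene Ccna2 (1.13). Of the 24 genes, 10 were higher in PZH without overlap between groups and 1 was lower, beside 917 and 2537 of all 14188 genes. The 4 largest falls were in the phosphatase gene Cdc25a (-0.78), Cdk4 (-0.64), Cdk6 (-0.44) and the transcription factor gene E2f3 (-0.41). The falls depended on the scaling, since with median-ratio scaling 12 were higher and 3 lower and Cdk4 was no longer called.

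Of 12 listed BCL2 family genes, to which Bax belongs, 7 were lower and 1 was higher. This is 58.3% and 8.33%, beside 32.1% lower and 12.7% higher of all genes. Bcl2a1d (-1.24), Bcl2l1 (-0.85), Bok (-0.56) and Bid (-0.43) had the largest falls. Bcl2a1d and Bcl2l1 encode proteins that protect cells, whereas Bid promotes death, and Bmf, which also promotes death, was higher (0.72). The median was -0.22, and with median-ratio scaling 4 were lower.

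A further list held transcription factors that are known to act on genes of the group beside p53. Of these 17, 13 were lower and 1 was higher, with a median of -1.01, and with median-ratio scaling 11 were lower and 1 was higher. In the main fit this is 76.5% lower and 5.88% higher, beside 32.1% and 12.7% of all genes. The largest falls were in Egr1 (14.0 ± 4.03 FPKM in control and 2.72 ± 2.09 in PZH mice, -2.10), Atf3 (24.1 ± 6.76 and 5.11 ± 1.20 FPKM, -2.01), Ddit3 (32.0 ± 7.34 and 7.33 ± 1.83 FPKM, -1.98) and Fos (-1.86). Egr1 and Fos are immediate early genes, and Atf3 and Ddit3 belong to the response to amino acid lack and misfolded protein. Cebpa, which holds the differentiated state of hepatocytes, was the gene that was higher (0.55). The part of these factors in the levels of the 10 genes was not tested.

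**Figure D4:**
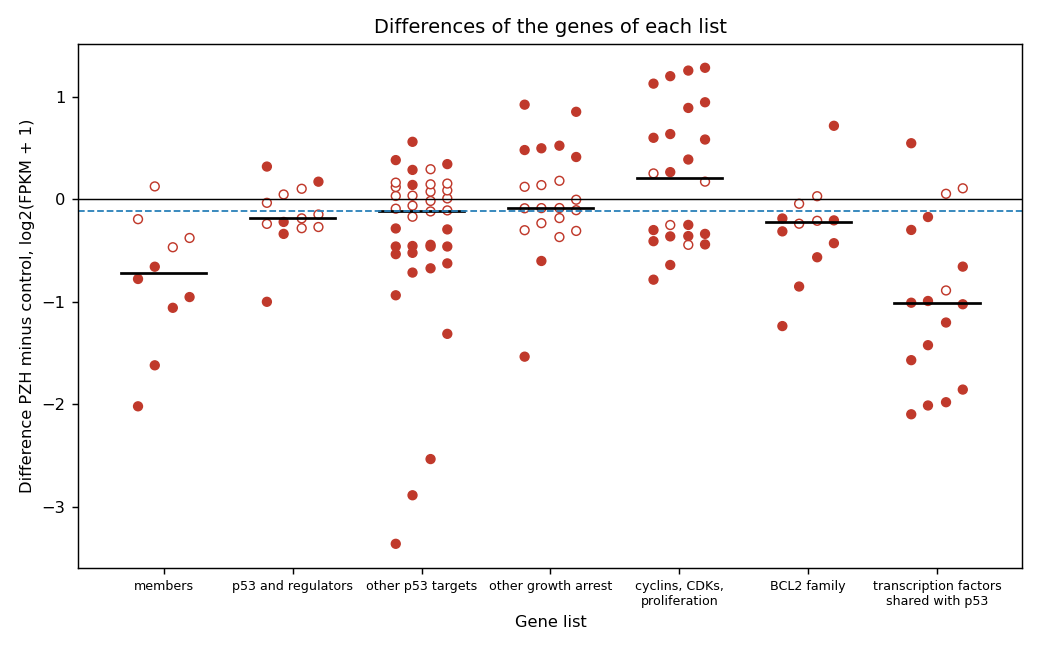
Difference between the PZH and control means of log2(FPKM + 1) (vertical axis) for each gene of 7 lists, filled where the adjusted p is below 0.05, with the median of each list as a black line and that of all genes as a dashed line. The 10 genes and the transcription factors have medians of -0.72 and -1.01, while the other p53 targets spread on both sides of 0.

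Markers of cell types moved beside these genes, and their counts are to be read beside 32.1% lower and 12.7% higher of all genes. The summed level of 8 hepatocyte markers was 23417 to 36815 FPKM in control and 41222 to 57453 in PZH mice, and 4 were higher, led by Cps1 (0.85) and Alb (0.68), and 1, Hnf4a, was lower (-0.30), while with median-ratio scaling 6 were higher and 0 lower. Of 8 stellate cell and myofibroblast markers 3 were lower, led by Tagln (-1.38) and Acta2 (-0.92), and 1 was higher. With median-ratio scaling 2 of these markers were higher, Col1a2 being added (0.58), and 3 lower. The sum of these 8 markers was 100.3 to 166.5 FPKM in control and 109.0 to 185.1 in PZH mice. Of 8 macrophage markers 2 were higher and 2 lower, led by Itgam (-0.87) and Clec4f (0.60), while with median-ratio scaling 3 were higher and 0 lower, with sums of 307.5 to 431.4 and 336.2 to 524.0 FPKM. Of 6 endothelial markers 2 were lower (Lyve1 at -0.62 and Pecam1 at -0.29), with sums of 58.7 to 68.0 and 44.1 to 64.5 FPKM. With median-ratio scaling Pecam1 was no longer called and Kdr was called higher (0.35). Of 6 neutrophil markers 2 were lower (Cxcr2 at -0.66 and Csf3r at -0.64), with sums of 19.1 to 64.6 and 13.4 to 140.5 FPKM, and Ly6g was listed at 0 in some mice, as was the cholangiocyte marker Epcam. Of 5 cholangiocyte markers 1, Sox9, was lower (-1.64), with sums of 96.9 to 161.0 and 66.9 to 133.3 FPKM. With median-ratio scaling Epcam was called higher (0.36). None of 8 lymphocyte markers was called by limma, and 0 had an unadjusted p below 0.05, though Ms4a1 was called higher (0.27) with median-ratio scaling, and their sum did not exceed 5.11 FPKM in any mouse. The labelled tissue is liver, and Alb was its dominant marker in both groups. The part of a changed cell makeup in the levels of the 10 genes was not tested.

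FPKM keeps no read totals, so the depth of each sample is unknown. The summed FPKM of a mouse was between 325302 and 370426, with PZH mouse 1 the highest. The median of all genes was -0.11, and with median-ratio scaling, in which the mice are matched on the median ratio of their transcripts it was close to 0, and 2735 genes were higher and 2795 lower in place of 1798 and 4560. The 6 lower genes were called under each scaling. Their differences with median-ratio scaling were -1.85 for Cdkn1a, -1.45 for Btg2, -0.88 for Trp53inp1, -0.78 for Bax, -0.65 for Gadd45a and -0.51 for Eda2r.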

How the data were processed

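Liver RNA of 6 PZH and 6 control mice was sequenced by the authors as ribosomal RNA-depleted, strand-specific libraries with paired-end reads. The authors used Trimmomatic for trimming, HISAT2 for mapping to GRCm38 and StringTie for assembly, and deposited FPKM per transcript and mouse. Each listed transcript has a sum of at least 1 FPKM over the 12 mice. The lncRNA table was not used.

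Transcripts were assigned to genes by GENCODE M21 (29876 of 29883 matched) and summed per gene. Values were put on the log2(FPKM + 1) scale with a pseudocount of 1 and no filter. Groups were taken from the sample titles. Differences were computed with limma 3.58.1 in R 4.3.3 with default moderation, two-sided, over all genes and over all transcripts. Intervals are from the same fits. For transcript shares, all 924 labellings of the mice were enumerated (exact permutation test, two-sided), which can give no p below 0.00216. The procedure was tested on simulated data, where it recovered 89.5% of 200 genes changed by 1 on the log2 scale with 2.72% false calls, and 66.5% of 200 such transcripts with 5.67% false calls.

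The genes and lists were chosen with earlier results of these data known. All 10 genes were named, and of each other list up to 4 of the largest called rises and falls, beside Trp53 and Mdm4, up to 2 called markers per cell type and the 5 genes most like Cdkn1a. Values of some genes of the other lists are not reported here. Alternatives were a pseudocount of 0.1, a filter at a mean of 1 FPKM, median-ratio and equal-sum scaling, other variance models, the replicate number as a block, the criterion of the study, and leaving out each mouse.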

Additional observations from a re-analysis of the deposited data

Results flagged for a closer look

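In 5 of the 20 groups of 6 mice (10 genes in 2 groups) a single mouse lay apart on the log2(FPKM + 1) scale. Its gap to its neighbor on that scale, as a share of the range of the group, was above Dixon's 95% critical value. The FPKM in brackets give the level of the mouse and not the scale of the gap. Chance flags about 1 in 20 groups. The gap was 0.668 of the range for Cdkn1a in PZH mouse 2 (9.99 FPKM, the highest) and 0.762 for Btg2 in PZH mouse 4 (4.80 FPKM, the lowest). It was 0.731 for Ccng1 in PZH mouse 1 (35.2 FPKM, the highest), 0.831 for Mdm2 in control mouse 3 (11.5 FPKM, the highest) and 0.690 for Phlda3 in control mouse 1 (1.73 FPKM, the lowest). The mice of Ccng1 and Phlda3 are those whose omission brought a call.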

How the results depend on the processing

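The counts of 6 lower genes and 9 lower transcripts fell to 3 and 4 under the criterion of a 2-fold change and an unadjusted p, where Gadd45a, Bax and Eda2r were no longer counted as genes, since their differences on the log2(FPKM + 1) scale were under 1 in size. With a pseudocount of 0.1 the differences of Bax (-1.01) and Gadd45a (-1.07) were past 1, and that of Eda2r (-0.82) was not. Under the remaining alternatives the 6 genes stayed called, and no gene of the 10 was called higher. Leaving out 1 mouse moved the log2 difference of Mdm2 between -0.0515 and 0.425, and it was negative without PZH mouse 1 (-0.0375), 3 (-0.0515) or 6 (-0.0330). The difference of the Mdm2-201 share lay between 9.38 and 30.1 percentage points, and it passed the unadjusted threshold without PZH mouse 1. Of the mice with the same number, deviations from the group means over all genes correlated between -0.07 and 0.08. Mice with different numbers were not compared, and whether the numbers pair the mice was not tested. With the replicate block 7 genes and 7 transcripts were lower, Phlda3 being added (-0.38, adjusted p = 0.0476). Of 240 alternative counts in the other lists, 211 were within 1.5 times the count reported and 29 were not. The cell type marker lists were not among these, and several of their calls changed with the scaling. Precision is limited by 6 mice a group, and read depth is unknown.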
